A study of Mus musculus with 14 samples.

Results

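The genes described here encode the chains of the fibrillar collagens of types I, III and V: Col1a1, Col1a2, Col3a1, Col5a1, Col5a2 and Col5a3. They were chosen by name, with earlier results of these data known. Every array probe whose platform symbol is one of these 6 was taken, which gave 11 of 45281 probes. Of the 11 probes, 7 passed the filter on dim probes (detection p under 0.05 on at least 2 arrays), and through them all 6 genes were among the 12444 genes tested.

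Fibrillar collagens are secreted as long procollagen chains that wind into triple helices, lose their end peptides outside the cell and pack into staggered fibrils. Type I is built from Col1a1 and Col1a2 chains and is the bulk collagen of stiff tissue. Type III, made of Col3a1 alone, is mixed into the fibrils of compliant organs such as lung, and type V, made of Col5a1, Col5a2 and in some tissues Col5a3 chains, sits inside type I fibrils and sets their start and width. In lung these chains come mainly from fibroblasts and related mesenchymal cells, and their accumulation is the hallmark of fibrosis.

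The data came from 14 single-colour Illumina MouseWG-6 v2.0 arrays of total RNA from sorted lung cells of Foxd1-Cre;Rosa26-tdTomato mice crossed with the Coll-GFP line, so that all groups carry the Cre, the tdTomato reporter and the GFP reporter. Foxd1-Cre marks cells with a history of Foxd1 expression rather than cells that express it now, and Coll-GFP places GFP under regulatory sequence of Col1a1. Peri cells were tdTomato-positive and GFP-negative, PeriFibro cells carried both colours, and Fibro cells carried GFP alone. Uninjured mice received saline in the airway (2 arrays for each population). Injured mice received bleomycin at 0.8 U/kg and were harvested at day 7, which gave 2 Peri arrays and 3 arrays each of the other populations. The study used adult mice. By the labels every bleomycin array came from male mice and every uninjured array from female mice, so that injury and sex cannot be told apart in any comparison below. Whether replicate arrays stem from separate mice is not given in the labels, and p-values then measure only the spread between these samples. The study removed outlying samples before the files were made.

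The sorted populations were checked against marker lists before the collagens were read. Mean log2 intensity of 12 endothelial markers was 8.11 in uninjured Peri, 12.5 in PeriFibro and 11.4 in Fibro cells, and that of 10 pan-leukocyte markers was 11.3, 8.23 and 9.87. The mean of the 10 pericyte markers tested was 5.33 in uninjured Peri cells and 7.05 in PeriFibro cells. The pericyte marker Rgs5 was not detected on any Peri array, while Pdgfrb was detected on every array. The mean of the 9 epithelial markers tested was 6.26 in uninjured Peri, 6.97 in PeriFibro and 10.3 in Fibro cells. After bleomycin it was 7.29, 7.86 and 9.01. Endothelial, leukocyte and epithelial transcripts thus differed between the sorted populations alongside the collagens, and their part in the collagen differences was not tested.

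The members lie on 5 mouse chromosomes (RefSeq, GRCm38.p6): Col3a1 at chr1:45311538-45349706, Col5a2 at chr1:45374331-45503282, Col5a1 at chr2:27886381-28039510, Col1a2 at chr6:4505618-4541543, Col5a3 at chr9:20770050-20815117 and Col1a1 at chr11:94936224-94953042. Col3a1 and Col5a2 are neighbours with 24624 bases between them. RefSeq promoter windows were matched for 4 of the 6 members. The stretches upstream of Col1a2 and Col3a1 are shown because these genes had the most similar levels across arrays, and that of Col5a1 because it changed most between groups. Capitals mark matches, on either strand, to CCAAT (the CCAAT box), TATAAA (the TATA box), CCGCCC (the GC box) and CAGACA (a motif that contains the core bound by Smad proteins). The windows are Col1a2 chr6:4505368-4505617, Col3a1 chr1:45311288-45311537 and Col5a1 chr2:27886175-27886380, all on the plus strand and all ending at the base before the gene's annotated start.
Col1a2: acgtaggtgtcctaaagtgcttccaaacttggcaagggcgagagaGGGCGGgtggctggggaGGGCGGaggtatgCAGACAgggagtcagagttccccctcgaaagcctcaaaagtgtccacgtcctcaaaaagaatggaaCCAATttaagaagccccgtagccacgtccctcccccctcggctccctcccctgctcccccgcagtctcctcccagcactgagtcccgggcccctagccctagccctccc
Col3a1: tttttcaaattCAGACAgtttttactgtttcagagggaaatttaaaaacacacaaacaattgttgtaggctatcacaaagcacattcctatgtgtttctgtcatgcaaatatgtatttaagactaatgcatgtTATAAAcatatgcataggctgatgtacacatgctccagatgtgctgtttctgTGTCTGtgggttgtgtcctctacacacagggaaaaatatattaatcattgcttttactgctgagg
Col5a1: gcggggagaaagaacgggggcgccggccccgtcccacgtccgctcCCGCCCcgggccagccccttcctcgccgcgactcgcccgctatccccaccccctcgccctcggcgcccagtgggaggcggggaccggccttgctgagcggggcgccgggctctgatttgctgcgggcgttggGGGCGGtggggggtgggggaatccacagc

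In the 250 bases before the start, Col1a2 held 2 CCGCCC matches, 1 CAGACA and 1 CCAAT, and no TATAAA. Col3a1 held 2 CAGACA matches and 1 TATAAA, and neither CCAAT nor CCGCCC. The only motif the windows of Col1a2 and Col3a1 shared was therefore CAGACA, which was also found once in the 250 bases before the Col5a1 transcript start, in a stretch not printed here because another transcript of that gene already covers it. Matches did not overlap each other. Of 32851 windows of this length in the table, 33.8% held CCAAT, 12.4% TATAAA, 32.7% CCGCCC and 17.1% CAGACA, so each of these motifs is common. A match is a string of letters and not evidence of binding.

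All fibrillar collagen probes were dim. The deposited signals of the 11 probes ran from 79.5 to 845.1, or 0.900 to 7.62 times the mean of the negative controls of the same array. That mean was inferred from the signals and their detection p-values. The brightest probe of an array lay between 27069 and 34875. The Col5a1 probe was detected on 14 of 14 arrays, Col1a2 on 12, Col1a1 and Col3a1 on 11 and Col5a2 and Col5a3 on 6. A second Col3a1 probe was detected on 1 array, and of the 5 Col5a2 probes 3 were detected on none and 1 on 2 arrays. Levels below are log2 intensities after background correction and quantile normalisation, in which the dimmest detected probe of an array lay between 4.66 and 4.82. Brightness depends on the probe, so levels were compared between groups and not between genes. In sorted bulk RNA, fewer collagen-producing cells and less collagen RNA per cell cannot be told apart.

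**Figure D1:**
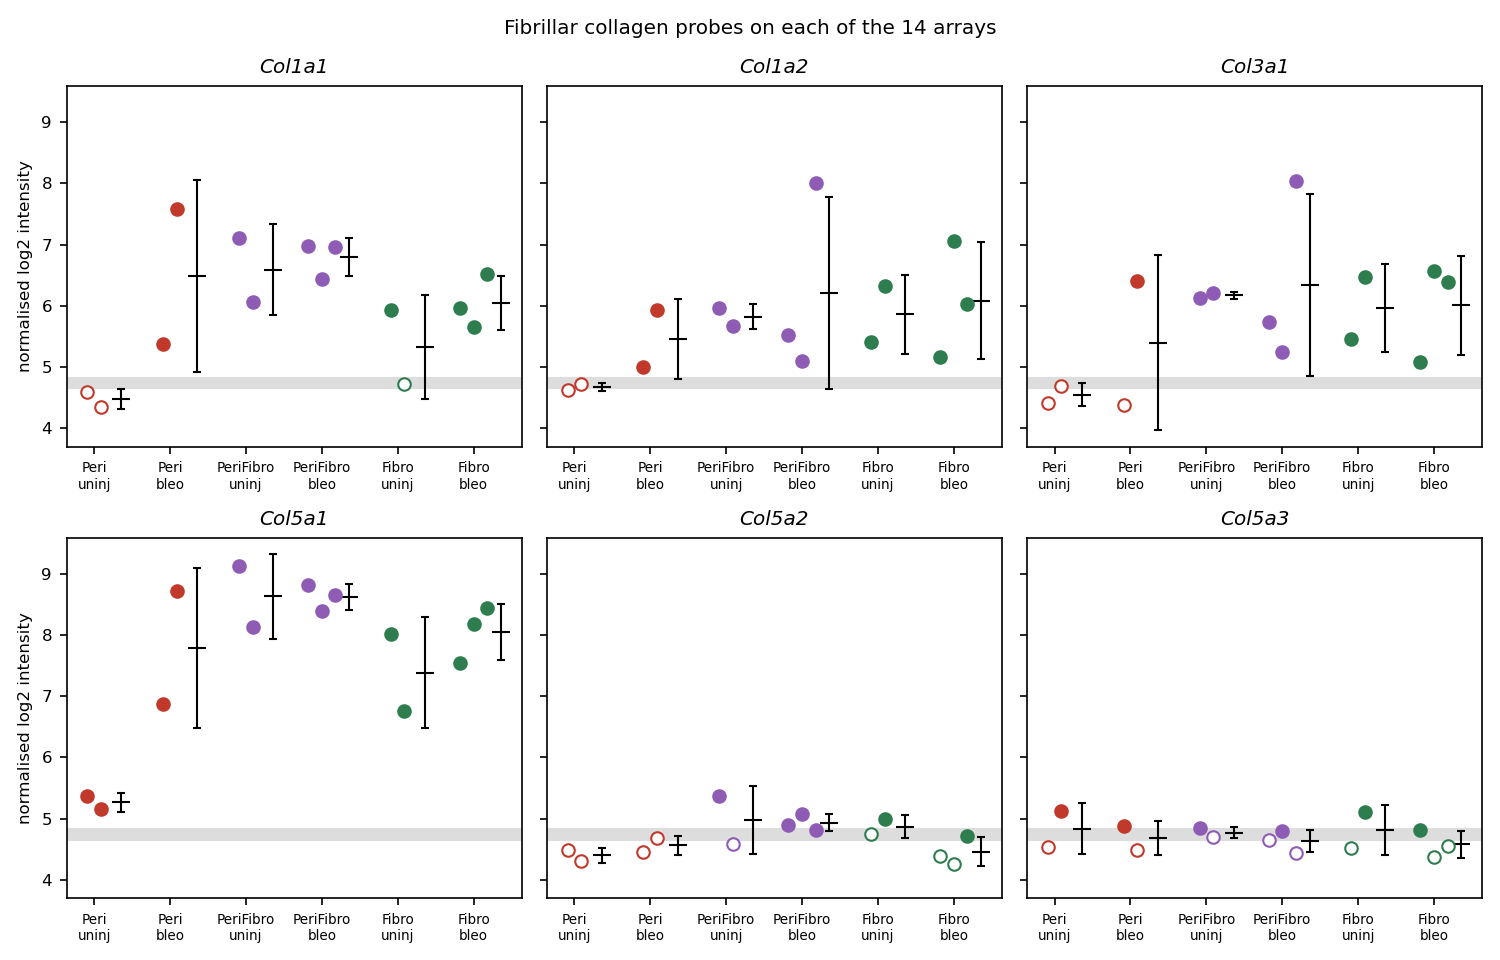
Normalised log2 intensity of the probe that represents each gene (y axis) on every array, by group (x axis). Filled points were detected (p under 0.05) and open points were not, black bars give mean ± SD (n = 2 or 3), and the grey band spans the dimmest detected probe of the 14 arrays. Uninjured Peri cells are in or below the band for 5 genes except on 1 Col5a3 array, and just above it for Col5a1.

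Col1a1, the chain present in 2 copies in each type I helix and the gene whose regulatory sequence drives the GFP, was not detected in uninjured Peri cells (4.59 and 4.36). The other uninjured arrays read 7.11 and 6.06 in PeriFibro and 5.93 and 4.73 in Fibro cells, the last of them not detected. PeriFibro cells were thus above Peri cells without overlap, while the Fibro replicates lay far apart. At day 7 after bleomycin Col1a1 read 5.38 and 7.59 in Peri, 6.98, 6.43 and 6.96 in PeriFibro and 5.96, 5.65 and 6.53 in Fibro cells, detected on every array. The highest value of all 14 arrays was that of Peri bleomycin replicate 2, and the other Peri bleomycin array was the lowest of the injured ones. Ordered by mean, the groups ran from PeriFibro bleomycin (6.79 ± 0.310, SD, n = 3) through PeriFibro uninjured, Peri bleomycin, Fibro bleomycin and Fibro uninjured to Peri uninjured (4.48 ± 0.166, n = 2). Neighbours in this order overlapped, except Fibro uninjured and Peri uninjured. The closest values of these groups, 4.73 and 4.59, were both not detected, so their order cannot be read.

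Col1a2, the other type I chain, was not detected in uninjured Peri cells (4.63 and 4.72). It read 5.97 and 5.68 in uninjured PeriFibro and 5.40 and 6.32 in uninjured Fibro cells. These 4 arrays stood above both Peri arrays. After bleomycin Col1a2 read 5.0 and 5.93 in Peri, 5.53, 5.10 and 8.01 in PeriFibro and 5.16, 7.06 and 6.02 in Fibro cells. A single array, PeriFibro bleomycin replicate 3, carried the highest value, and the other PeriFibro bleomycin arrays lay below both uninjured PeriFibro arrays. The 6 group means had the order PeriFibro bleomycin (6.21 ± 1.57, n = 3), Fibro bleomycin, Fibro uninjured, PeriFibro uninjured, Peri bleomycin and Peri uninjured (4.67 ± 0.0604, n = 2), and only the last step separated groups that did not overlap.

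Col3a1, the single chain of type III collagen, was not detected in uninjured Peri cells (4.42 and 4.69) or on 1 of the Peri bleomycin arrays (4.39), whereas the other Peri bleomycin array read 6.41. It read 6.13 and 6.22 in uninjured PeriFibro and 5.45 and 6.47 in uninjured Fibro cells, all above the uninjured Peri arrays. Injured PeriFibro arrays read 5.74, 5.25 and 8.03 and injured Fibro arrays 5.08, 6.56 and 6.39. Injured PeriFibro arrays alone spanned 5.25 to 8.03, and every neighbouring pair of groups overlapped in the order of the means, from PeriFibro bleomycin (6.34 ± 1.49, n = 3) to Peri uninjured (4.55 ± 0.194, n = 2).

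Col5a1, the type V chain found in nearly all type V molecules, separated the groups most. It read 5.37 and 5.16 in uninjured Peri, 9.12 and 8.14 in PeriFibro and 8.02 and 6.75 in Fibro cells. Every GFP-positive array was above both uninjured Peri arrays. After bleomycin it read 6.87 and 8.71 in Peri, 8.81, 8.39 and 8.66 in PeriFibro and 7.55, 8.18 and 8.43 in Fibro cells, so that both injured Peri arrays were above the uninjured ones and 1 of them reached the PeriFibro range. PeriFibro means were nearly equal before and after injury (8.63 ± 0.695, n = 2, and 8.62 ± 0.213, n = 3), followed by Fibro bleomycin, Peri bleomycin, Fibro uninjured and Peri uninjured (5.27 ± 0.153, n = 2). Among neighbours in this order, only the last 2, Fibro uninjured and Peri uninjured, did not overlap.

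Col5a2, the partner chain of most type V molecules, stayed between 4.26 and 5.37 and was detected on all 3 PeriFibro bleomycin arrays (4.89, 5.08 and 4.81) but on no Peri array. Of the other uninjured arrays it was detected on 1 PeriFibro array (5.37) and 1 Fibro array (5.0), and of the injured Fibro arrays on 1 (4.72). The other kept Col5a2 probe gave differences between -0.22 and 0.12 in the 9 comparisons between groups, and passed the test in none. Col5a3, a type V chain of restricted tissue range, stayed between 4.38 and 5.13 and was detected on exactly 1 array of each group. These levels are near the limit of detection, and no order of the groups can be read from Col5a3, whose neighbouring group means all overlapped.

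The share of a gene's variance across the 14 arrays that lay between the 6 groups was 82.6% for Col5a1, 66.5% for Col1a1, 58.5% for Col5a2, 36.4% for Col3a1, 31.4% for Col1a2 and 18.6% for Col5a3. With 14 arrays in 6 groups, a sizeable share arises from the number of groups alone. A share by itself is therefore no evidence that the groups differ.

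Which population carried more fibrillar collagen RNA before injury was asked with linear models in limma, a gene being called at a Benjamini-Hochberg adjusted p under 0.05 over 12444 genes and at least a 2-fold difference. Between uninjured Peri and PeriFibro cells 2 of the 6 members were called lower in Peri, against 14.6% of all genes called lower, and none was called higher, against 10.2% of all genes. Col5a1 was 10.3-fold lower in Peri cells (log2 difference -3.36 ± 0.584, SE, n = 2 and 2, limma adjusted p = 0.00103). With the deposited normalised values its difference was -1.05, or 2.07-fold (adjusted p = 0.0161). Col1a1 was at least 3.49-fold lower, measured from the detection limit because Peri cells did not rise above it. Its call is a description, since the sort itself split these cells by a Col1a1 reporter, and no member's difference between GFP-negative and GFP-positive cells is independent of that gate. Col3a1 (log2 difference -1.62 ± 0.873, adjusted p = 0.211), Col1a2 (-1.15 ± 0.837, adjusted p = 0.375) and Col5a2 (-0.57 ± 0.283, adjusted p = 0.170) were below the threshold, and Col5a3 differed by 0.06 ± 0.290. The median difference was -1.38 over the 6 members and -0.05 over all genes. The call of Col1a1 was lost in 5 alternative settings and without either Peri uninjured array or PeriFibro uninjured replicate 1. The call of Col5a1 held with each single array left out (log2 difference -3.85 to -2.87). Without the 3 arrays named below the Col1a2 difference stayed at -1.15, while its SE fell from 0.837 to 0.362. Those arrays hold the highest Col1a2 values and lie in neither group compared, so that fit is no evidence of a difference.

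Between uninjured Peri and Fibro cells 1 member was called lower in Peri, against 12.8% of all genes, and none higher, against 8.88%. Col5a1 was 4.35-fold lower (log2 difference -2.12 ± 0.584, n = 2 and 2, limma adjusted p = 0.0211). Col3a1 differed by -1.41 ± 0.873 (adjusted p = 0.279), Col1a2 by -1.19 ± 0.837 (adjusted p = 0.345) and Col1a1 by -0.86 ± 0.642 on the log2 scale. The call of Col5a1 was lost without Peri uninjured replicate 1 (adjusted p = 0.0716), Peri uninjured replicate 2 (0.118) or Fibro uninjured replicate 1 (0.123, log2 difference -1.49). Under the deposited normalised values the difference shrank to -0.51 (adjusted p = 0.211).

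The GFP-positive populations were not told apart by any member. Between uninjured PeriFibro and Fibro cells 0 members were called by limma and 0 had an unadjusted p under 0.05, against 2.35% of all genes called. Col5a1 was 1.24 ± 0.584 higher in PeriFibro cells on the log2 scale (95% interval -0.04 to 2.52, adjusted p = 0.329), with groups that did not overlap, and Col1a1 was 1.26 ± 0.642 higher, also without overlap. For Col1a2 the difference was -0.04 (95% interval -1.87 to 1.79) and for Col3a1 0.21 (-1.70 to 2.12), intervals that leave room for more than 2-fold either way.

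After bleomycin no member was called between populations. From Peri to PeriFibro cells 0 of 6 were called by limma, against 20.9% of all genes, and 0 had an unadjusted p under 0.05. Col5a1 was -0.83 ± 0.533 on the log2 scale in that comparison (95% interval -2.0 to 0.34), and Col3a1 -0.94 ± 0.797. The sign depended on the Peri array, since Col5a1 was -1.75 (adjusted p = 0.0442) without Peri bleomycin replicate 2 and 0.09 (adjusted p = 0.954) without replicate 1, where Col1a1 was 0.80 and Col3a1 0.07. Either fit leaves 1 Peri array, assumed to vary like the other groups. Between Peri and Fibro cells 0 of 6 were called, against 7.53% of all genes, and none had an unadjusted p under 0.05, with differences from -0.62 to 0.44. Between PeriFibro and Fibro cells 0 of 6 were called, against 6.09%, again with none at an unadjusted p under 0.05, although all 6 differences were positive (0.05 to 0.75). The 2 largest of these were 0.75 ± 0.524 for Col1a1 and 0.57 ± 0.477 for Col5a1.

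**Figure D2:**
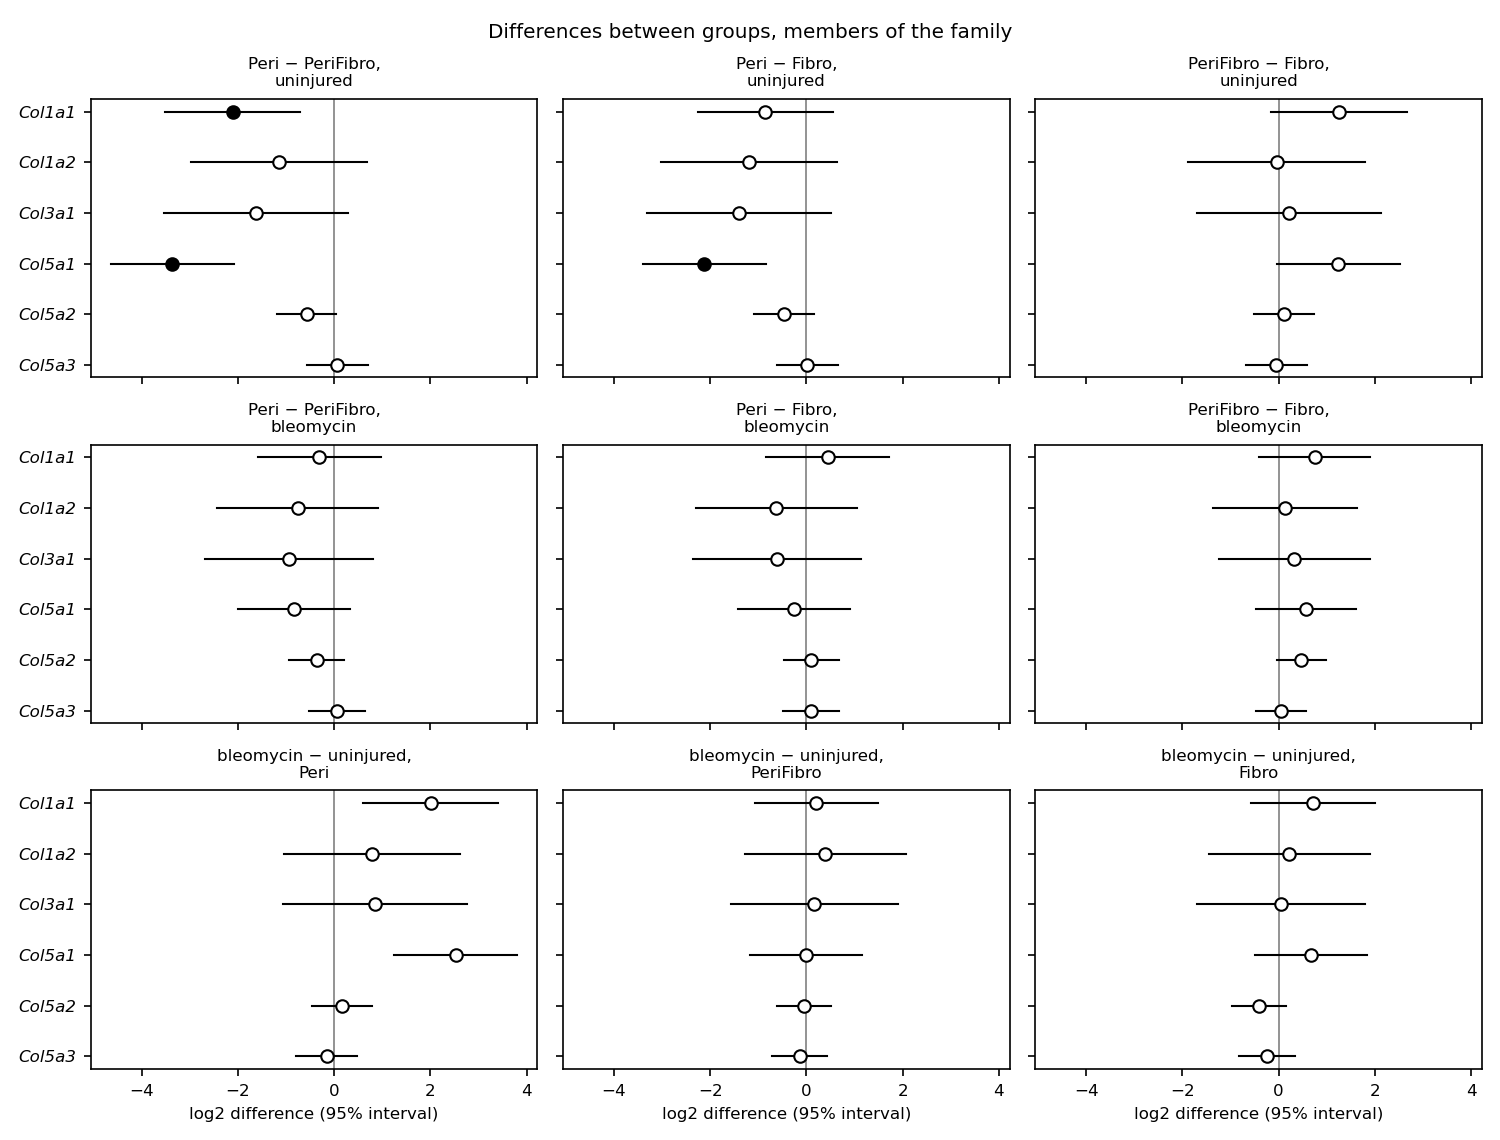
Log2 difference of each member in the 9 comparisons between groups (x axis, first group minus the other), with its 95% interval from the model over all 14 arrays. Filled points passed the threshold, which were Col1a1 and Col5a1 between uninjured Peri and PeriFibro cells and Col5a1 between uninjured Peri and Fibro cells.

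Whether bleomycin raised the fibrillar collagens was asked within each population. In Peri cells 0 of 6 members were called by limma, against 0.595% of all genes, while 2 members and 872 of 12444 genes had an unadjusted p under 0.05. Col5a1 went from 5.37 and 5.16 to 6.87 and 8.71, a log2 difference of 2.53 ± 0.584 (95% interval 1.25 to 3.81, n = 2 and 2, limma adjusted p = 0.106). Col1a1 was at least 3.25-fold higher after bleomycin, measured from the detection limit (log2 difference 2.01 ± 0.642, limma adjusted p = 0.355). Neither gene's groups overlapped, and the Peri gate excludes GFP in both groups. Col1a2 differed by 0.79 ± 0.837 and Col3a1 by 0.84 ± 0.873, and Col5a2 and Col5a3 by 0.16 ± 0.283 and -0.15 ± 0.290. These values rest on which injured array is kept. With replicate 2 alone the difference was 3.12 for Col1a1 (adjusted p = 0.0449) and 3.45 for Col5a1 (adjusted p = 0.0291), and with replicate 1 alone it was 0.90 and 1.60, with Col3a1 at -0.17 and no member called. In such fits the lone array is assumed to vary like the other groups, and replicate 2 is the higher of the pair. The 2 injured Peri arrays also differed in marker lists: from replicate 1 to replicate 2 the fibroblast mean was 6.64 and 7.73, the endothelial mean 8.38 and 9.47 and the macrophage mean 8.86 and 9.74, while the neutrophil mean was 10.9 and 9.78 and the pan-leukocyte mean 11.2 and 10.9. From uninjured to injured Peri cells the macrophage mean went from 7.41 to 9.30, and the part of these lists in the collagen values was not tested.

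In PeriFibro cells 0 of 6 members were called, against 0.129% of all genes, and none had an unadjusted p under 0.05. Col5a1 differed by -0.01 ± 0.533 (95% interval -1.18 to 1.16) and Col1a1 by 0.21 ± 0.586 (-1.08 to 1.49). The differences of Col1a2 and Col3a1 turned from 0.39 and 0.17 to -0.51 and -0.68 without PeriFibro bleomycin replicate 3 and the 2 Fibro arrays that share its pattern. PeriFibro bleomycin replicate 3 held the highest value of both genes, so leaving it out must lower both differences. The 2 Fibro arrays do not enter them. In Fibro cells 0 of 6 were called, against 1.6% of all genes, and none had an unadjusted p under 0.05. The 2 genes with the highest differences in Fibro cells were Col1a1 (0.71 ± 0.586) and Col5a1 (0.67 ± 0.533), and Col5a2 was -0.41 ± 0.259, with groups that did not overlap but lay near background.

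Averaged over the 3 populations, the bleomycin difference was 0.98 for Col1a1 and 1.06 for Col5a1, 0.47 for Col1a2, 0.35 for Col3a1, -0.10 for Col5a2 and -0.18 for Col5a3. In limma 0 of 6 were called, against 1.33% of all genes, and 2 members (Col1a1, adjusted p = 0.214, and Col5a1, adjusted p = 0.131) and 1815 of 12444 genes had an unadjusted p under 0.05. An exact two-sided permutation test that relabelled injury within each population (600 relabellings, smallest possible p = 0.00167) gave p = 0.04 for Col1a1, 0.0667 for Col5a1 and 0.217 to 0.503 for the other 4. These 6 p-values are unadjusted. That of Col1a1 was 0.0667 with the deposited values (difference 0.18), 0.0617 without background correction and 0.0533 with an offset of 50, and 0.111 without PeriFibro bleomycin replicate 3, Fibro bleomycin replicate 2 and Fibro uninjured replicate 2.

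The response was then compared between populations. It was larger in Peri than in PeriFibro cells by 2.53 ± 0.791 for Col5a1 (limma adjusted p = 0.648) and by 1.80 ± 0.869 for Col1a1 (adjusted p = 0.981), and 0 members were called, as were 0 of all genes (0 percent), of which 652 had an unadjusted p under 0.05. Against Fibro cells the response of Peri cells was larger by 1.86 ± 0.791 for Col5a1 (adjusted p = 0.481), with 0 members called against 0.482% of genes and 1 at an unadjusted p under 0.05. Between PeriFibro and Fibro cells 0 members were called, against 0.129%, and 0 had an unadjusted p under 0.05. The 95% interval of the Col5a1 response difference was 0.80 to 4.27 against PeriFibro cells and 0.12 to 3.59 against Fibro cells, without adjustment for the number of genes.

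The members fell into pairs that rose and fell together from array to array. Col1a1 and Col5a1 had r = 0.92 (Spearman 0.96) over the 14 arrays, and r = 0.93 after group means were removed. Col1a2 and Col3a1 had r = 0.94 (Spearman 0.96), and 0.93 within groups. Between the pairs r was lower, at 0.41 for the type I chains Col1a1 and Col1a2 (0.15 within groups), 0.55 for Col1a1 with Col3a1, 0.54 for Col5a1 with Col1a2 and 0.64 for Col5a1 with Col3a1. Col5a2 had r = 0.53 with Col5a1 and 0.18 with Col1a2, and Col5a3 had negative r with the other members except Col5a2. These correlations are descriptions over 14 arrays that share groups and array-wide deviations, and carry no test.

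Some arrays stood out for the pair Col1a2 and Col3a1, whose correlation without these arrays was not computed. Both had their 3 highest values on PeriFibro bleomycin replicate 3, Fibro bleomycin replicate 2 and Fibro uninjured replicate 2, on which Col1a1 read 6.96, 5.65 and 4.73, the last below detection. The fibroblast marker mean on these 3 arrays was 8.29, 7.84 and 7.71, against 6.29 to 7.73 on the other 11, and the heart muscle marker mean was 7.44, 7.53 and 8.96, against 4.90 to 8.12. Across all arrays the fibroblast mean had r = 0.88 with Col1a2 and 0.90 with Col3a1, but 0.62 with Col1a1 and 0.76 with Col5a1. Dcn, Lum, Dpt and other genes of that list encode matrix proteins themselves. The part of these cell markers in the collagen levels was not tested.

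**Figure D3:**
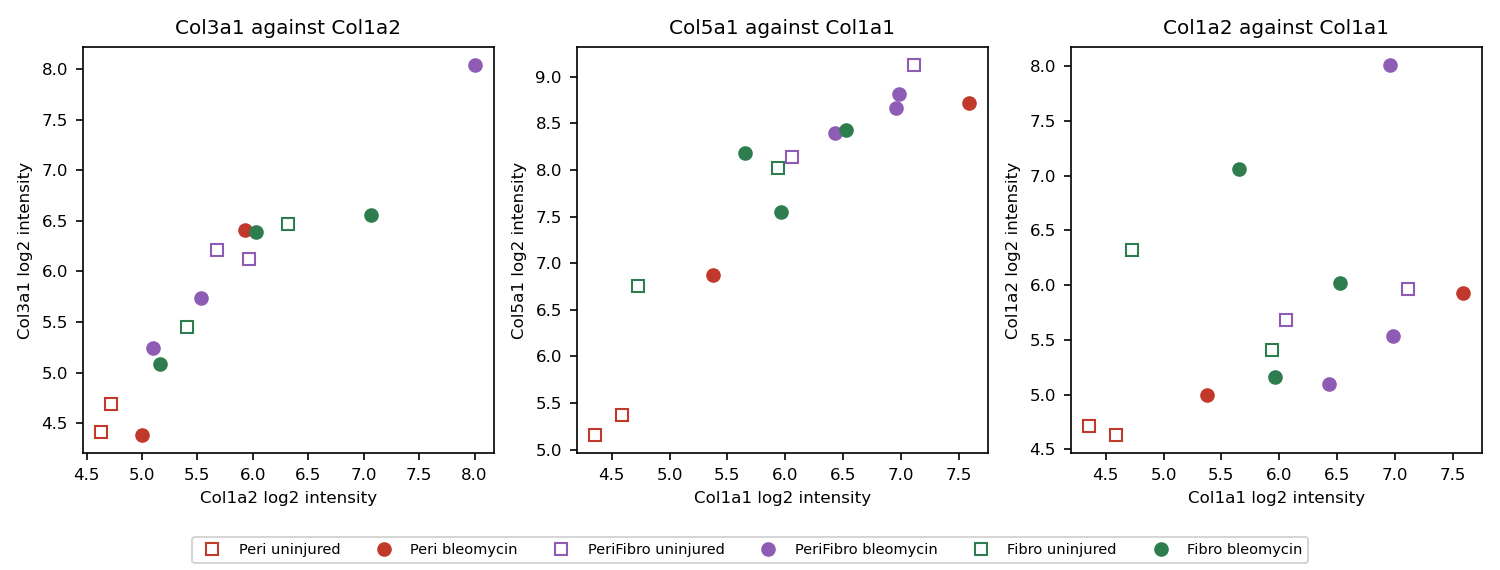
Normalised log2 intensities of 2 members plotted against each other, 1 point per array (squares uninjured, circles bleomycin, colours for the populations). Points lie along a line for Col3a1 against Col1a2 (r = 0.94) and for Col5a1 against Col1a1 (r = 0.92), and scatter for Col1a2 against Col1a1 (r = 0.41).

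The genes whose levels most resembled the mean of the 6 centred members over the 14 arrays were Pcolce (r = 0.96), which speeds the removal of the procollagen end peptide, Acta2 (0.93), the smooth muscle actin of contractile cells, Cd248 (0.93), a surface protein of mesenchymal cells, Vegfd, Nbl1, Zmat3, Cygb, Ccl19, Col6a1 and Pdzrn3 (0.91 to 0.92). For Col1a1 alone they were Col6a2 (0.92), a type VI collagen chain, Mmp2 (0.90), a gelatinase, Lox (0.90), the enzyme that starts collagen cross-links, Serping1 (0.88), the C1 inhibitor, and Bgn (0.87), a small proteoglycan. Lists for the other members were drawn up after their values had been seen. Col5a1 was nearest to Bgn and Mmp2 (0.97 each), and Col1a2 and Col3a1 both to Mmp23 (0.98 and 0.95), with Clec3b among the 5 nearest of each. Similar levels over the same 14 arrays say nothing of shared control.

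The wider collagen pathway was followed with 9 lists holding 79 genes, of which 61 were tested. The lists were chosen with earlier results of these data known. Their differences between GFP-negative and GFP-positive cells are also not independent of the Col1a1 reporter gate, so the counts below are descriptions. Between uninjured Peri and PeriFibro cells 36 of 61 were called lower in Peri, and 2 higher, against 14.6% and 10.2% of all genes. Between uninjured Peri and Fibro cells the counts were 25 and 2, against 12.8% and 8.88%. After bleomycin 23 were lower in Peri than PeriFibro cells and 3 higher, against 1392 and 1213 of all 12444 genes (20.9% in either direction). Set against Fibro cells 3 were lower in Peri cells and 1 higher, against 530 and 407 of all genes (7.53% in either direction). Between PeriFibro and Fibro cells 1 gene of the lists was called before injury and 5 after it, against 2.35% and 6.09% of all genes. The other fibrillar chains, Col11a1, Col11a2 and Col27a1, were tested and called in no comparison. Between uninjured Peri and PeriFibro cells, 11 of 12 endothelial markers were also called lower in Peri cells and 0 higher. Of 10 pan-leukocyte markers 10 were called higher and 0 lower. The part of such cell type differences in the counts and folds of the pathway genes was not tested.

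Among the enzymes and chaperones that prepare the chains inside the cell, 8 of 14 were lower in uninjured Peri than PeriFibro cells (14.6% of all genes) and none was higher (10.2%). Serpinh1, the collagen-specific chaperone of the endoplasmic reticulum, was 30.3-fold lower (adjusted p = 3.9e-05). P4ha2, a catalytic subunit of prolyl hydroxylase, was at least 9.13-fold lower, and P3h3, of the prolyl 3-hydroxylase family, at least 5.41-fold lower. Against Fibro cells 4 of the 14 were lower (12.8% of all genes), Serpinh1 by 16.4-fold. After injury 7 of the 14 genes were lower in Peri cells when set against PeriFibro cells (1392 of all 12444 genes), Serpinh1 by 8.60-fold. P4ha2 was the only gene of this list called higher after bleomycin in Peri cells, by at least 2.51-fold (adjusted p = 0.0336).

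Genes that act outside the cell were also called lower in uninjured Peri cells. Of all genes, 14.6% were called lower there against PeriFibro cells and 12.8% against Fibro cells. Of 4 procollagen cleavage genes 3 were lower than in PeriFibro cells, among them Bmp1, the protease that removes the carboxyl end peptide (15.3-fold), and its enhancer Pcolce (at least 4.58-fold), and the same 3 were lower than in Fibro cells. All 5 of the tested collagens found on or beside fibrils were lower than in PeriFibro cells, the farthest being Col15a1 (at least 6.90-fold), Col6a1 (6.84-fold) and Col16a1 (5.67-fold). Of 8 fibril assembly genes 5 were lower, led by Sparc (16.9-fold), a collagen-binding matricellular protein, Tnxb (14.2-fold), a tenascin, and Bgn (9.78-fold). Of 4 cross-linking genes Loxl1 (4.43-fold) and Lox (at least 2.12-fold) were lower.

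The breakdown list moved in both directions. Mmp2, Mmp14, Timp1, Timp2 and Timp3, which make or restrain pericellular collagen-cleaving activity, were lower in uninjured Peri than PeriFibro cells, Timp3 by 18.1-fold and Mmp14 by 17.5-fold. Mmp9, a gelatinase stored in neutrophils, was 33.4-fold higher in Peri cells, where the mean of 9 neutrophil markers (Mmp9 among them) was 10.9 against 6.39. Ctsk, a collagen-degrading cathepsin of macrophages and osteoclasts, was 37.0-fold lower in Peri than in Fibro cells, whose macrophage marker mean was 10.1 against 7.41. Collagen receptors had 4 of 6 lower in uninjured Peri than PeriFibro cells (14.6% of all genes), with Itga1, a collagen-binding integrin chain, at 22.9-fold. In the TGF-beta list 4 of 8 were lower (14.6% of all genes), with the target Ccn2 at 23.3-fold. Smad3, a signal transducer, was 6.54-fold higher, a direction in which 10.2% of all genes were called.

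After bleomycin 6 of the 61 pathway genes were called higher in Peri cells and 0 lower, against 63 higher and 11 lower of all 12444 genes (0.595% in all). They were Timp1 (at least 27.2-fold, adjusted p = 0.00141), Mmp14 (11.4-fold), Ccn2 (7.89-fold), Bgn (6.79-fold), Loxl1 (4.97-fold) and P4ha2. In PeriFibro cells Timp1, a metalloproteinase inhibitor, was the only gene of the lists to pass (11.5-fold), as in Fibro cells (17-fold). Averaged over the populations Timp1 (18.6-fold), Mmp14 (3.57-fold), Lox (3.06-fold) and Loxl1 (2.12-fold) were called higher. The fibrillar collagen genes themselves were not among the called genes in any of these comparisons, with a median difference over the members of 0.81 (all genes 0.03) in Peri, 0.08 (-0.03) for PeriFibro and 0.14 (-0.03) for Fibro cells. Of 11 macrophage markers 3 were called higher after injury in Peri cells (63 of all 12444 genes), and their part in these differences was not tested.

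**Figure D4:**
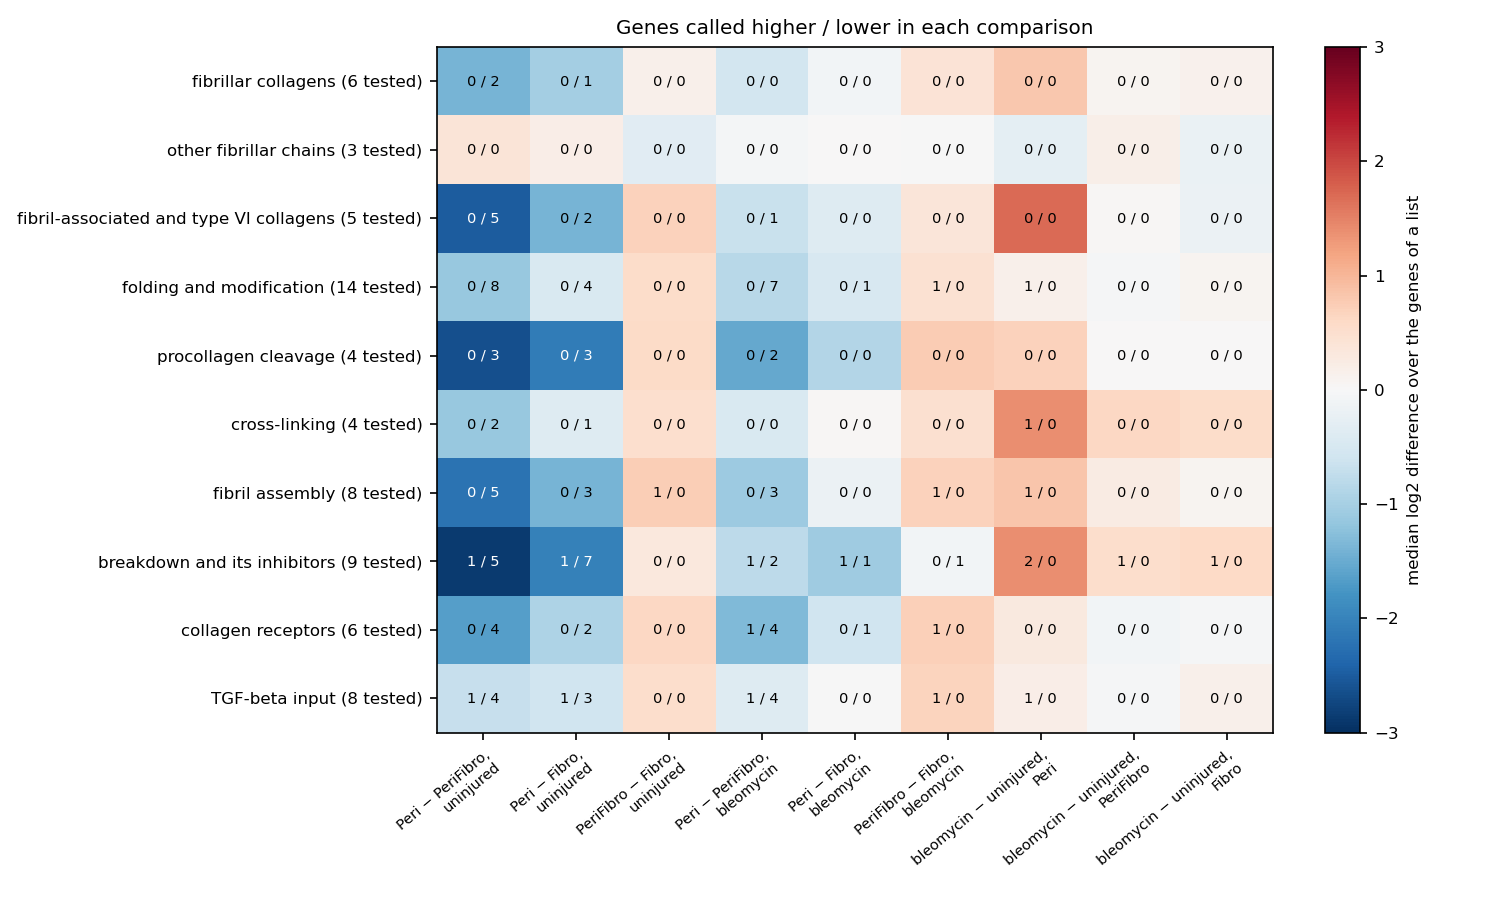
Number of genes called higher / lower for the fibrillar collagens and the 9 pathway lists (rows) in each comparison between groups (columns), over the median log2 difference of the tested genes (colour). The columns that set uninjured Peri cells against the GFP-positive populations hold most of the lower calls. The columns of bleomycin minus uninjured cells within a population hold 8 calls, all higher.

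Across the 14 arrays Col5a1 had its highest correlation with the mean of the fibril-associated list (r = 0.98), and Col1a1 with the cross-linking list (0.91). Col1a2 and Col3a1 had r = 0.54 and 0.63 with the fibril-associated list and 0.35 and 0.42 with the cross-linking list. Col5a2 was nearest to the pericyte markers (0.78), and the highest r of Col5a3 was 0.25, with the neutrophil markers. All members but Col5a3 had negative r with the pan-leukocyte mean (-0.72 for Col5a2 to -0.37 for Col1a2), which was highest in the Peri arrays.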

How the data were processed

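RNA of 3 sorted lung populations, before and 7 days after bleomycin, was measured on 14 arrays. The authors deposited an unnormalised signal intensity per probe and array, and beside it a detection p-value against negative controls. They also deposited log2 values that were variance-stabilised and quantile-normalised with lumi (version not given in the sources used here), used as an alternative. Genes came from the platform annotation: 34885 probes had 1 symbol, 18 several and 10378 none, and only the first kind was tested.

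Intensities were background-corrected and quantile-normalised with neqc (limma 3.58.1, R 4.3.3; offset 16, log2). A probe was kept if 2 or more arrays had a detection p under 0.05, and the brightest probe on average stood for a gene. All 6 groups entered 1 model (lmFit, eBayes; 8 residual and 3.43 prior degrees of freedom) with 13 contrasts, two-sided, adjusted by Benjamini-Hochberg over 12444 genes. A group with no detected array was set to the dimmest detected signal of each array for "at least" folds. The model was tested on simulated data. Members and lists were chosen with earlier results of these data known. Named are all members, up to 3 called genes a list and comparison with the largest difference, and the nearest genes by correlation; Clec3b, Dcn, Lum, Dpt and further called pathway genes listed in full were named beyond this. Promoters are those of RefSeq GRCm38.p6. Whether replicate numbers pair the arrays is not given in the labels. Slides are not identified, so no slide block was run, and each array detected 39.4% to 44.4% of its probes. The small number of arrays limits precision.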

Additional observations from a re-analysis of the deposited data

How the results depend on the processing

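With uninjured Peri against PeriFibro cells, 1 member (Col5a1) in place of 2 was called with the deposited normalised values, without background correction, with an offset of 50, with median scaling and without the detection filter. In the first of these Col1a1 differed by -0.37 and Col5a1 by -1.05 on the log2 scale, in place of -2.11 and -3.36. With only the groups compared in the model 4 were called (Col1a1, Col1a2, Col3a1 and Col5a1). Leaving out 1 array gave 1 to 2. Against Fibro cells 0 members in place of 1 were called with the deposited values, without background correction, with an offset of 50 and with median scaling, and leaving out 1 array gave 0 to 1. Leaving out 1 array gave 0 to 1 for Peri against PeriFibro cells after bleomycin, 0 to 2 for bleomycin in Peri cells and 0 to 1 for its mean over populations. The mean bleomycin difference of Col1a1 in the exact permutation test was 0.18 (p = 0.0667) with the deposited values, 0.37 (0.0617) without background correction, 0.59 (0.0533) with an offset of 50 and 0.81 (0.111) without the 3 arrays that stand apart. Leaving out 1 array gave 0.61 to 1.35 for Col1a1, 0.75 to 1.37 for Col5a1 and -0.23 to 0.032 for Col5a2, whose sign turned without PeriFibro uninjured replicate 1. The cause of these changes was not tested. With the replicate block the counts stayed at 2, 1 and 0 and no call changed. Same-numbered arrays deviated with r of -0.44 to 0.69 (median 0.03, 10 of 31 pairs over 0.1). These pairs include uninjured with bleomycin arrays, and in groups of 2 arrays the deviations mirror each other. They therefore cannot decide whether same-numbered arrays share mice. Of 454 alternative values for counts and exact tests, 419 were rated the same. For a count this meant an equal or similar number of called members, and for an exact test the same side of p = 0.05. Most comparisons had 0 members called to begin with, so this agreement says little about the calls. Dim signals limit all members, Col5a1 included, whose probe read 1.22 and 1.08 times the inferred mean of the negative controls in uninjured Peri cells.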
